A study of Mus musculus with 2 samples.

Results

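Respiratory complex I genes encoded in the nucleus were taken from the deposited gene list by name, as every symbol that starts with Nduf and goes on with a, b, c, s or v and a number, or with af. This found 44 of the 27998 genes in the matrix. They were divided by role into 7 core subunits, 9 accessory subunits of the matrix arm, 19 accessory subunits of the membrane arm, 7 assembly factors, and the pair Ndufa4 and Ndufa4l2. The 35 core and accessory subunits are called subunits here. Ndufab1, a subunit that also serves fatty acid synthesis, has a symbol outside this pattern and was counted with other complex I genes.

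Complex I, NADH dehydrogenase, is the entry point of the mitochondrial respiratory chain. It passes electrons from NADH through a flavin and a row of iron-sulphur clusters in its matrix arm to ubiquinone, and its membrane arm pumps protons. The core subunits do this chemistry and are shared with bacteria. Those of the matrix arm are nuclear genes, and those of the membrane arm, the mt-Nd genes, stay in mitochondrial DNA. Accessory subunits stabilise the complex, and assembly factors build it without remaining in it. In the adult brain, neural stem cells are known for a more glycolytic metabolism than their neuronal progeny.

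Cells came from the lateral subventricular zone (SVZ), the stem cell niche along the lateral ventricles, of male C57BL/6 mice. Animals were 2 months old, with tissue of 4 mice in a pool, or 22 months old, with 8 mice in a pool. All cells were sorted as positive for GLAST, an astrocyte and radial glia transporter, and as negative for O4, Ter119 and CD45, markers of oligodendrocytes, red cells and leukocytes. From 8000 sort events each, 1 library per age was made with the Chromium 3′ kit, which counts transcripts by unique molecular identifiers (UMIs). Pooling means that no animal can be told from another, and with 1 library per age there is no replicate.

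The matrix marks each cell with library number 1 or 2, and no label gives the age of either number, so values are given as library 1 and library 2 and no age is compared. Library 1 had 1849 barcodes and 10440891 UMIs, library 2 had 2088 barcodes and 13330251 UMIs, and 4 barcode sequences occurred in both. Cells were clustered without the complex I genes and grouped by fixed markers. Quiescent cells (710 in library 1 and 583 in library 2) had the markers that quiescent stem cells share with astrocytes, and the 2 types were not told apart. Activated cells (183 and 345) had markers of activated stem cells and transit amplifying progenitors, and neuroblasts (365 and 508) those of migrating young neurons. The 17 quiescent markers summed to 49702 and 45889 UMIs per 1000000 UMIs (CPM) in quiescent cells, against 5110.4 and 3974 in activated cells. The 17 neuroblast markers summed to 15513 and 13131 CPM in neuroblasts and 3560 and 3374 in activated cells. The 15 activated markers did not separate these classes, with 6979 and 6902 CPM in activated cells and 6291 and 7293 in neuroblasts. In activated cluster 5, 12 of the 15 were at least 1.5-fold above all other cells, and in cluster 9, 8 were. In activated cluster 11, with 18 and 83 cells, only 3 were, fewer than the 8 in cluster 8, which was left unnamed. Neuroblast cluster 6, with 86 and 198 cells, was led by the mitotic genes Nusap1 and Ube2c and held 721319 of 1687076 neuroblast UMIs in library 1 and 1813454 of 3032370 in library 2. Oligodendrocytes, which the sort was set to remove, numbered 100 in library 1 and 9 in library 2.

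Levels are sums of UMIs over the cells of a class, given as CPM of that class. They are shares of a class's transcripts and not amounts per cell. Each transcript is tagged once near its 3′ end, so levels of different genes were compared with no correction for length. With no replicates there was no test. A gene was counted as higher or lower in a class when its level differed at least 1.5-fold in the same direction in both libraries, and all intervals are 95% intervals that cover counting error only.

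Promoter sequences of 6 members are shown because these genes, of 3 roles, differ in how their levels moved between classes, as described further on. Each is the 250 bases before the start of the gene in RefSeq on GRCm38.p6, 5′ to 3′ on the gene's strand, and lies outside the gene as annotated by GENCODE. Capitals mark the motif of nuclear respiratory factor 1 (NRF1), which is GCGC, then any 2 bases, then GCGC, or CCGGAAG, the letters of an ETS motif of the kind bound by the factor GABP, searched on both strands.
Ndufv2, core, chr17:66101560-66101809, minus strand: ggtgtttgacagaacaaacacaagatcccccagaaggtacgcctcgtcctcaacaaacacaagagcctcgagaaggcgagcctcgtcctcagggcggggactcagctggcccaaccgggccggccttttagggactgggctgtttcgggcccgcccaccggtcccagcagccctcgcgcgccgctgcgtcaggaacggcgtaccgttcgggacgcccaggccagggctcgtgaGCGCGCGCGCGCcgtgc
Ndufs8, core, chr19:3912775-3913024, minus strand: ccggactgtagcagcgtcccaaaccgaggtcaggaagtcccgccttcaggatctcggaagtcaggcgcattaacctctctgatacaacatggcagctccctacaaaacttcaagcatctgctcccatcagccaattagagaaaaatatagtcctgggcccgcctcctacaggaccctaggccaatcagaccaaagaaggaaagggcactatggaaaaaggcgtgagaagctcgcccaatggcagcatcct
Ndufb11, membrane arm, chrX:20617620-20617869, minus strand: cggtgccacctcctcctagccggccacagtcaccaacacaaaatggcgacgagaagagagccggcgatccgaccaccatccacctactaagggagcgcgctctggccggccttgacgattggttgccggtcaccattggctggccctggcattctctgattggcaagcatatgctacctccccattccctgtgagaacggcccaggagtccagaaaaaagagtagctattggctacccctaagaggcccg
Ndufaf1, assembly factor, chr2:119662835-119663084, minus strand: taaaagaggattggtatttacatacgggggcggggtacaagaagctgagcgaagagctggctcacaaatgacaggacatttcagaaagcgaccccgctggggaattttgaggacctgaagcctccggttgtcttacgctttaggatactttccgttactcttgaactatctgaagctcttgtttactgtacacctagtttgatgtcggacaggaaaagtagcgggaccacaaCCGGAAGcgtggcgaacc
Ndufaf2, assembly factor, chr13:108158626-108158875, minus strand: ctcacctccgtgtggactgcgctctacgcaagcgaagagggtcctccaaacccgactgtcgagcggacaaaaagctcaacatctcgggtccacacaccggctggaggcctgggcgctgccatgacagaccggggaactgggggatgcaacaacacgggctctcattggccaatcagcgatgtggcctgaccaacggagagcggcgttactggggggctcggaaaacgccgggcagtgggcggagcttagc
Ndufaf4, assembly factor, chr4:24897833-24898082, plus strand: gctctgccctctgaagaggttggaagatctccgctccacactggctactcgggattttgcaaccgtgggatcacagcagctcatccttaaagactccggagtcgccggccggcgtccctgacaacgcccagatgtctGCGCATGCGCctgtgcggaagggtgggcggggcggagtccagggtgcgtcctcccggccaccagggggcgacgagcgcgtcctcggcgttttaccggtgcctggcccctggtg

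Of the 44 members, 38 had a promoter in the RefSeq table. The NRF1 letters occurred in 8 of the 38 (21.1%), namely Ndufa5, Ndufa8, Ndufa11, Ndufaf4, Ndufb4, Ndufs5, Ndufs6 and Ndufv2, and in 5.09% of the 27025 mouse promoters of the same length. Of the 38 windows, 19 lie outside the annotated gene, and of the 8 with these letters only those of Ndufa11, Ndufaf4 and Ndufv2 do; the window of Ndufa5 lies inside the gene along all 250 bases, and the other 4 overlap it in part. The strand was checked against a transcript start in 35 of the 38. In Ndufv2, 2 overlapping matches began 17 and 15 bases before the start, and in Ndufaf4 the match began 113 bases before it. Ndufb4 held 3 matches. The ETS letters occurred in 4 promoters (10.5%, against 7.05% of all), those of Ndufaf1, Ndufb6, Ndufb7 and Ndufs3. AANATGGC, letters of the motif of the factor YY1, occurred in 5 (13.2%, against 3.93%), with Ndufs8 and Ndufb11 among them, and GGGCGG, the letters of the SP family motif, in 17 (44.7%, against 32.9%). These are matches of letters, and no binding was measured.

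Levels of single genes spanned a wide range. Averaged over the 3 classes and both libraries, the highest were Ndufa2, a matrix arm subunit with a thioredoxin-like fold, at 621 CPM, and Ndufa4 at 617. Ndufc2, Ndufa13 and Ndufa3, all of the membrane arm, followed at 503, 479 and 473. The lowest was Ndufa4l2, a paralogue of Ndufa4 known to be induced by hypoxia, at 1.15, followed by the assembly factors Ndufaf1 at 15.2, Ndufaf5 at 21.8, Ndufaf6 at 22.7 and Ndufaf7 at 32.5. Over the 35 subunits, Spearman's rho between libraries was 0.97 in quiescent cells and 0.99 in activated cells. Between quiescent and activated cells it was 0.88 in library 1 and 0.87 in library 2, and between quiescent cells and neuroblasts 0.85 and 0.83. These are correlations across genes, which are not independent replicates, and all classes of a library share its depth and chemistry.

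**Figure D1:**
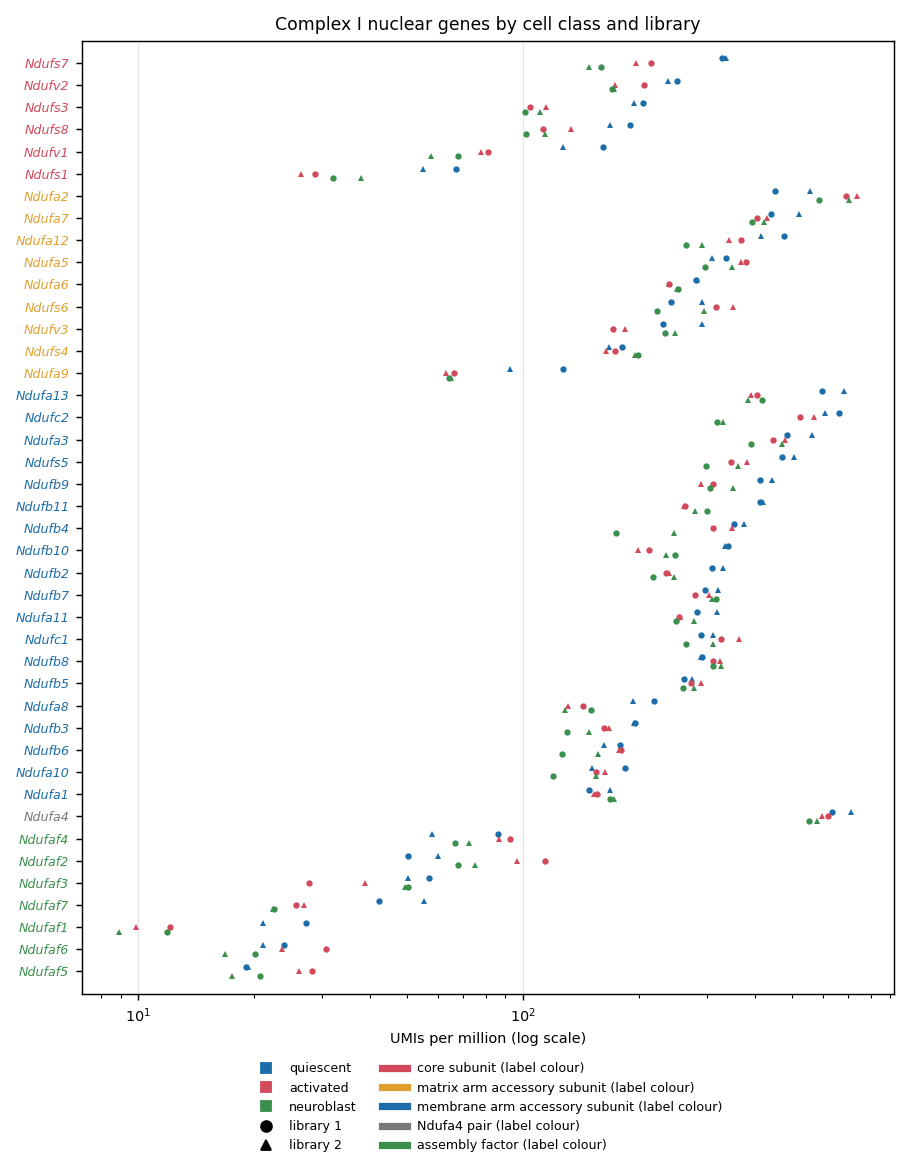
Level of each member in CPM (log scale) in quiescent cells, activated cells and neuroblasts, with circles for library 1 and triangles for library 2, and gene names coloured by role. The core subunits Ndufs1, Ndufs3 and Ndufv1 stand to the right in quiescent cells (Ndufs3 at 204 and 194) and to the left in the other classes, and Ndufa4l2, which had almost no UMIs, and 1 core subunit are not drawn.

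Summed over the 35 subunits, complex I transcripts took a larger share of the transcriptome in quiescent cells than in activated cells or neuroblasts. The sum was 10549 CPM in library 1 (interval 10427 to 10673) and 10882 in library 2 (10746 to 11020.4) in quiescent cells. In activated cells it was 8951 and 9202, and in neuroblasts 8029 and 8740, values below those of quiescent cells in both libraries. Without mitochondrial and cytosolic ribosomal protein UMIs in the total, the same sums, as CPM of the UMIs that remain, were 11823 and 12471 in quiescent cells, 11095 and 11603 in activated cells, and 9794 and 10789.7 in neuroblasts, in the same order. The ribosomal share of all UMIs moved with the classes: it was 7.15% and 8.95% in quiescent cells, 15.9% and 17.6% in activated cells, and 15.1% and 16.0% in neuroblasts.

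Counted per cell the order was another one. Quiescent cells held a mean of 39.8 subunit UMIs in library 1 (SD 20.7 over 710 cells) and 41.5 in library 2 (SD 19.7 over 583 cells). Activated cells held 97.0 and 94.8, and neuroblasts 37.1 and 52.2. Depth moved with these values, since the median cell had 3501.5 and 3529 UMIs in the quiescent class, 11089 and 10497 in the activated class, and 3554 and 5234.5 among neuroblasts. After each cell was thinned to 2000 UMIs, with shallower cells left out, the median subunit count was 21 and 21 in quiescent cells, 17 and 18 in activated cells, and 15 and 17 in neuroblasts. How far the higher UMI total of an activated cell reflects more RNA in the cell was not tested.

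The 7 core subunits differed most between quiescent and activated cells. Of 8448 genes counted in this comparison, 26.1% were lower in activated cells and 27.7% higher. Among members, 9 of 43 were lower and 1 was higher, a share of lower genes no larger than that of all genes. By role the counts were unequal: 5 of 7 core subunits were lower and none higher, against 2 of 28 accessory subunits lower and none higher. Length was taken for each gene as the median over its annotated protein-coding transcripts. By this measure core subunits had a median of 977 bases, against 595 for accessory subunits of the matrix arm and 629 for the membrane arm. It gave 651 bases for Ndufs1, the lowest of the core, and 2413 for Ndufb2, the highest of the membrane arm. It need not be the length of the transcripts that were counted. Over the 35 subunits, Spearman's rho of this annotated length with the log2 ratio was -0.61 in library 1 and -0.46 in library 2. Within the 28 accessory subunits it was -0.50 and -0.30. The part of length was not tested. All 7 core subunits were below quiescent cells in both libraries. Their median log2 ratio was -0.97 in library 1 and -0.76 in library 2, beside medians of 0.06 and 0.08 over all genes. Without mitochondrial and ribosomal protein UMIs in the total, the medians of all genes moved to 0.20 and 0.22, the core medians were -0.82 and -0.62, all 7 stayed below 0 in both libraries, and 3 of 7 passed the fold, beside 23.1% of all genes lower. Markers of other cell types moved with this comparison. The sum over 11 oligodendrocyte precursor markers was 1674 and 1538 CPM in quiescent cells and 161 and 121 in activated cells, that over 11 ependymal markers 195 and 271 against 18.7 and 26.7, and that over 9 pericyte markers 94.0 and 230.1 against 4.03 and 9.28. Of the precursor markers 3 and 1 were at 0 in quiescent cells, of the ependymal markers 3 and 0, and of the pericyte markers 6 and 1. Their part in the result was not tested.

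Ndufs1, the largest core subunit and a carrier of iron-sulphur clusters (chr1:63143596-63176833, GRCm38), had 66.7 CPM in quiescent cells of library 1 and 54.8 in library 2. In activated cells it had 28.7 and 26.4, and in neuroblasts 32.0 and 37.9. Both quiescent values stood above those of activated cells and neuroblasts. The 100 oligodendrocytes of library 1 had 61.5 CPM, from 29 UMIs. The log2 ratio of activated to quiescent cells was -1.22 (-1.67 to -0.78) in library 1 and -1.05 (-1.46 to -0.65) in library 2. It was a sparse transcript, with 179 and 122 UMIs in quiescent cells and 57 and 94 in activated cells. After thinning, 12.7% and 9.85% of quiescent cells had a Ndufs1 UMI, against 5.03% and 5.23% of activated cells. Before thinning the shares were 21.3% and 18.2% against 23.0% and 23.2%, in cells of unequal depth. No class that lacks complex I was at hand to set a background for such shares.

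Ndufs7 (chr10:80249121-80256794), a core subunit at the ubiquinone site where the electron path ends, had 329 and 337 CPM in quiescent cells, 215 and 197 in activated cells, and 159 and 148 in neuroblasts. Its log2 ratios of activated to quiescent cells were -0.61 and -0.77, and with mitochondrial and ribosomal protein UMIs left out they became -0.47 and -0.64, the first of which did not reach 1.5-fold.

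Ndufs3 (chr2:90894634-90904827), a core subunit at the junction toward the quinone module, had 204 and 194 CPM in quiescent cells, 104 and 114 in activated cells, and 101 and 110.5 in neuroblasts. Its log2 ratio of activated to quiescent cells was -0.97 (-1.21 to -0.74) and -0.76 (-0.96 to -0.56). Ndufv1 (chr19:4007384-4012806), which binds the flavin and takes electrons from NADH, had 161 and 127 CPM in quiescent cells, 81.2 and 77.9 in activated cells, and 67.6 and 57.7 in neuroblasts. The ratios of Ndufv1 were -0.99 and -0.71, and -0.85 and -0.57 with the smaller total, where library 2 fell short of the fold.

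The last pair of core subunits did not pass the fold in both libraries. Ndufs8 (chr19:3908863-3912774), which holds a pair of iron-sulphur clusters, had 189 and 168 CPM in quiescent cells and 113 and 133 in activated cells, with log2 ratios of -0.75 (-0.98 to -0.52) and -0.33 (-0.53 to -0.13). Ndufv2 (chr17:66078638-66101559), the partner of Ndufv1 in the NADH module, had 252 and 238 CPM against 207 and 173, with log2 ratios of -0.28 (-0.46 to -0.10) and -0.46 (-0.63 to -0.29). Their intervals lay below 0 in both libraries. Of the 5 core genes with a promoter in the table, Ndufv2 alone held the NRF1 letters shown above.

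Core subunits therefore made up a larger part of all subunit UMIs in quiescent cells. Their share was 13.2% (12.8 to 13.6%) in library 1 and 11.99% (11.6 to 12.4%) in library 2, by exact Clopper-Pearson intervals. In activated cells it was 9.44% (9.02 to 9.88%) and 8.98% (8.68 to 9.30%), and in neuroblasts 9.31% (8.83 to 9.81%) and 8.59% (8.25 to 8.93%). This share is taken within subunit UMIs, so the UMI total of a class does not enter it. The intervals of quiescent cells did not overlap those of activated cells and neuroblasts, and in each class library 1 had the higher value.

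**Figure D2:**
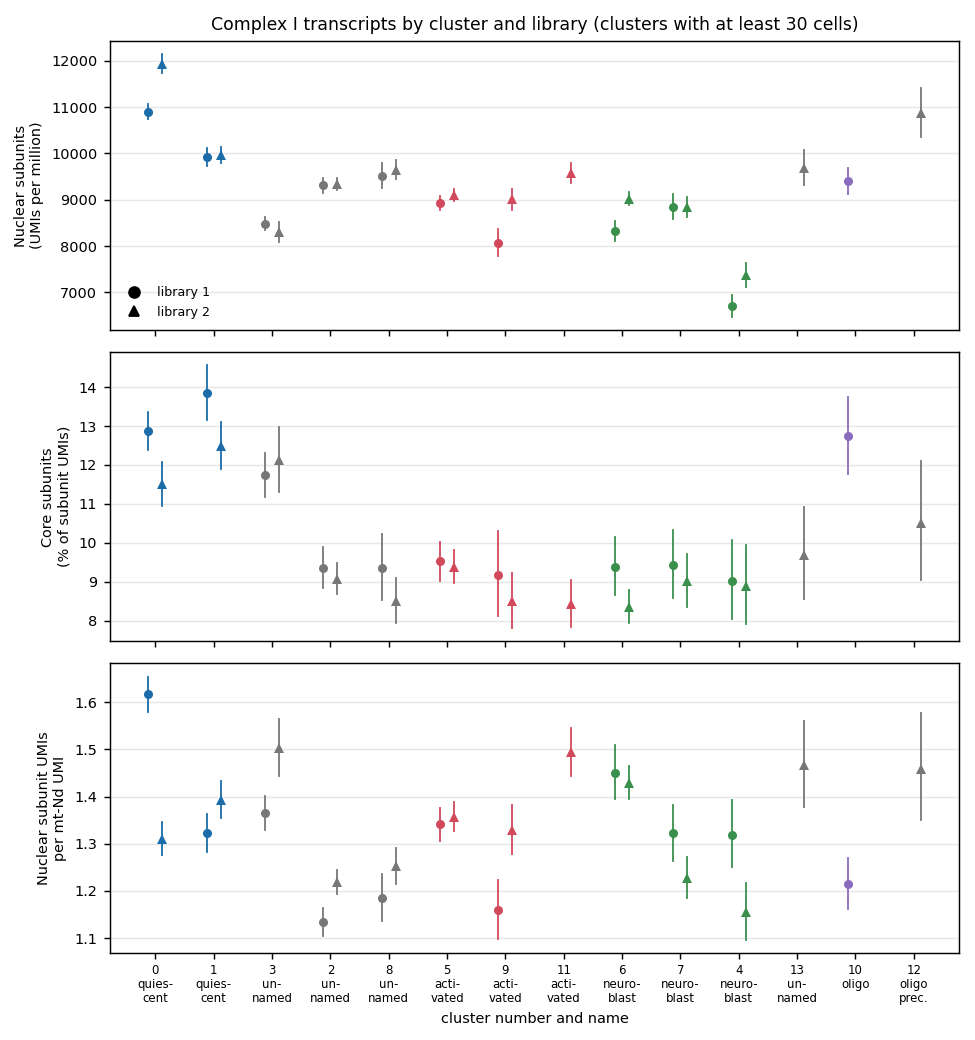
Summed subunit level (top, CPM), core subunits as a percent of subunit UMIs (middle) and subunit UMIs per mt-Nd UMI (bottom) in each cluster with at least 30 cells in the library, with circles for library 1, triangles for library 2 and bars for 95% counting intervals. The core share is 11.5% to 13.9% in quiescent clusters 0 and 1 and at most 9.52% in the activated and neuroblast clusters.

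The pattern held in single clusters. In quiescent clusters 0 and 1 the core share was 12.9% and 13.9% in library 1 and 11.5% and 12.5% in library 2. In activated clusters 5, 9 and 11 and neuroblast clusters 4, 6 and 7 it lay between 8.35% and 9.52%, wherever a library had at least 30 cells. Unnamed cluster 3, led by the immediate early genes Junb and Atf3, had 11.7% and 12.1% in 237 and 131 cells. Unnamed clusters 2 and 8, led by Ccnd1 and Dll1 and by Ung and E2f1, had 9.36% and 9.35% in library 1 and 9.07% and 8.50% in library 2. The 100 oligodendrocytes of library 1 had 12.7% (11.8 to 13.8%), between the quiescent values.

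Accessory subunits of the matrix arm kept closer to their quiescent levels, and none of 9 passed the fold in either direction in both libraries. Their median log2 ratio of activated to quiescent cells was -0.12 and -0.24. Ndufa2 stood at the upper end, with 452 and 555 CPM in quiescent cells, 689 and 739 in activated cells, and 586 and 703 in neuroblasts. It was the member of highest level in activated cells of both libraries, with log2 ratios to quiescent cells of 0.61 (0.50 to 0.72) and 0.41 (0.32 to 0.51). Ndufs6, a zinc-binding subunit, had 242 and 292 CPM in quiescent cells and 317 and 351 in activated cells, with log2 ratios of 0.39 and 0.26. Ndufa9, which sits where the matrix arm joins the membrane, was at the other end with 127 and 92.6 CPM in quiescent cells and 66.1 and 63.0 in activated cells.

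Among the 19 accessory subunits of the membrane arm, Ndufb10 and Ndufb11 were lower in activated cells and none was higher. Ndufb10 had 340.1 and 334 CPM in quiescent cells, 212 and 199 in activated cells, and 248 and 235 in neuroblasts. Ndufb11, an X-linked subunit, had 413 and 421 CPM in quiescent cells, 263 and 263 in activated cells, and 301 and 280.0 in neuroblasts. Both were near the threshold: with mitochondrial and ribosomal protein UMIs left out, the log2 ratios of activated to quiescent cells were -0.54 and -0.61 for Ndufb10 and -0.50 and -0.54 for Ndufb11, and neither passed. Ndufa13, also known as GRIM-19, had 596 and 681 CPM in quiescent cells and 404 and 392 in activated cells, a 1.47-fold and 1.74-fold difference that missed the fold in library 1 only.

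Assembly factors went both ways. Ndufaf1, a member of the complex that assembles the membrane arm, had with Ndufs1 the lowest ratios of all members, with 27.2 and 21.1 CPM in quiescent cells, 12.1 and 9.84 in activated cells, and 11.9 and 8.90 in neuroblasts. Its log2 ratios of activated to quiescent cells were -1.17 (-1.90 to -0.49) and -1.10 (-1.78 to -0.44), from 73 and 47 UMIs in quiescent cells and 24 and 35 in activated cells. Ndufaf7, a methyltransferase of early assembly, had 42.1 and 55.3 CPM in quiescent cells, 25.7 and 27.0 in activated cells, and 22.5 and 22.4 in neuroblasts. It was lower, at log2 ratios of -0.71 and -1.03, though with the smaller total library 1 came to -0.57 and missed the fold.

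Ndufaf2, a chaperone of late assembly and a paralogue of Ndufa12, was the 1 member that was higher in activated cells. It had 50.3 and 60.2 CPM in quiescent cells, 114 and 96.5 in activated cells, and 67.6 and 74.9 in neuroblasts. The activated values stood above those of quiescent cells and neuroblasts, and the log2 ratios to quiescent cells were 1.18 (0.86 to 1.497) and 0.68 (0.39 to 0.98). After thinning, a Ndufaf2 UMI was seen in 8.86% and 10.8% of quiescent cells and 19.0% and 19.8% of activated cells, and before it in 15.8% and 19.4% and in 63.9% and 61.4%. Its promoter, shown above, held neither the NRF1 nor the ETS letters.

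The other assembly factors did not pass the fold in both libraries. Ndufaf4, which works with Ndufaf3 on the quinone module, had 86.1 and 58.0 CPM in quiescent cells and 92.3 and 86.3 in activated cells, so that its quiescent values differed more between libraries than between classes of library 1. Ndufaf3 had 57.1 and 50.3 CPM in quiescent cells and 27.7 and 38.8 in activated cells, with log2 ratios of -1.04 (-1.51 to -0.59) and -0.38, the second with an interval that reached from -0.75 to just under 0. Ndufaf5, which hydroxylates Ndufs7, had 19.0 and 19.3 CPM against 28.2 and 26.2. The intervals of its ratios, and those of Ndufaf6, an early assembly factor at 23.9 and 21.1 against 30.8 and 23.6 CPM, included 0 in both libraries.

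Ndufa4, once counted as a complex I subunit and now placed in complex IV, had 636 and 713 CPM in quiescent cells, 621 and 599 in activated cells, and 554 and 579 in neuroblasts. Its log2 ratio of activated to quiescent cells was -0.04 and -0.25, and it turned to 0.11 in library 1 with mitochondrial and ribosomal protein UMIs left out. Ndufa4l2 had 1 and 8 UMIs in quiescent cells, 0 and 1 in activated cells, and 0 and 8 in neuroblasts, too few for a comparison.

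**Figure D3:**
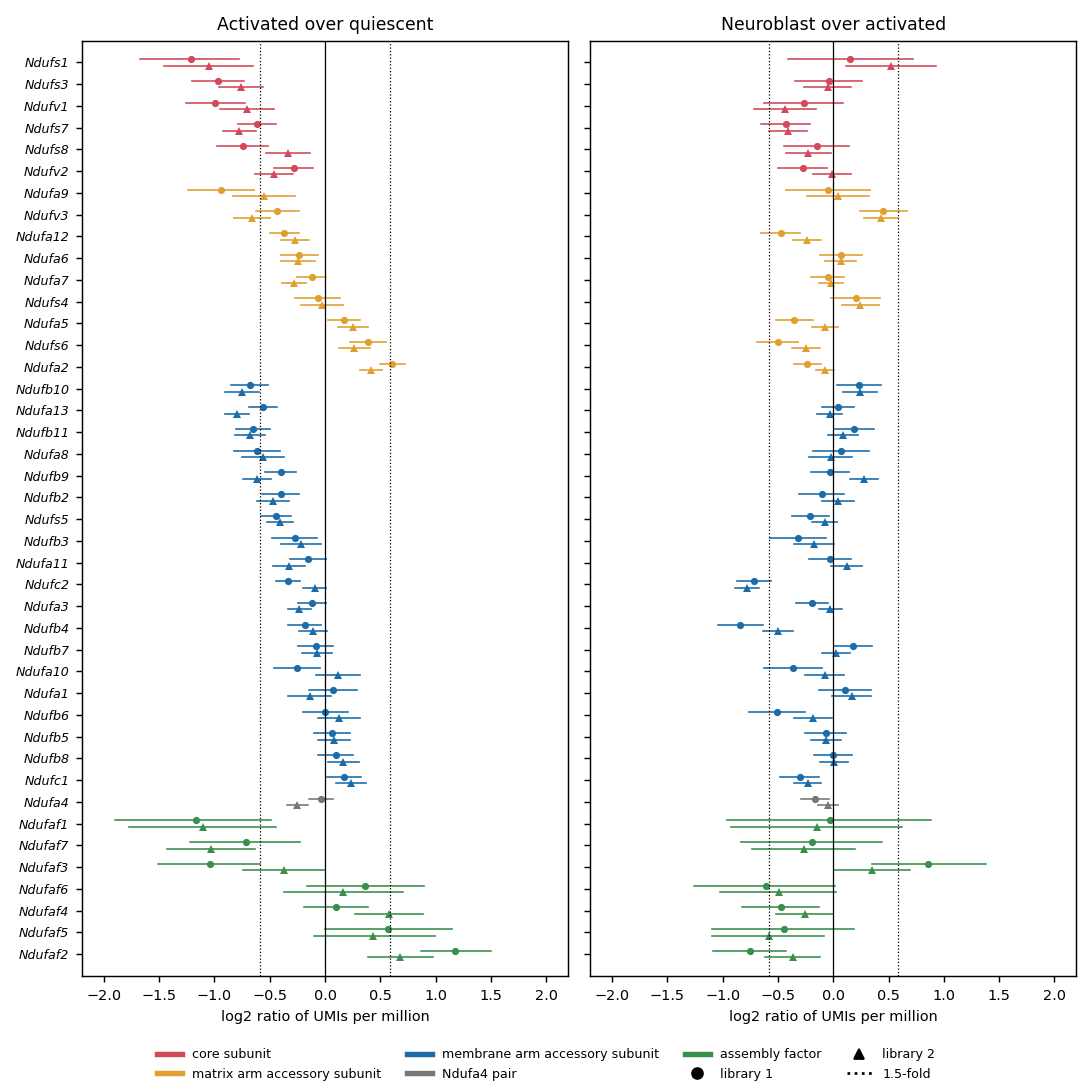
Log2 ratio of CPM for each member, activated over quiescent cells (left) and neuroblasts over activated cells (right), with circles for library 1, triangles for library 2, bars for 95% counting intervals and dotted lines at 1.5-fold. The core subunits drawn lie between -1.22 and -0.28 on the left and scatter around 0 on the right.

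From activated cells to neuroblasts the members moved little. Of 7364 genes, 9.8% were higher and 10.4% lower in neuroblasts, and of 42 members none was higher and 1, Ndufc2, was lower. Ndufc2, a membrane arm subunit, had 663 and 608 CPM in quiescent cells, 525 and 569 in activated cells, and 319 and 331 in neuroblasts. Its log2 ratio of neuroblasts to activated cells was -0.72 (-0.87 to -0.57) and -0.78 (-0.89 to -0.67), with the neuroblast values below those of quiescent and activated cells. Ndufb4, another membrane arm subunit, had 312 and 348 CPM in activated cells and 174 and 246 in neuroblasts, with ratios of -0.84 and -0.50, the second short of the fold.

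The core subunits showed no such step. Their median log2 ratio of neuroblasts to activated cells was -0.15 in library 1 and -0.05 in library 2, beside -0.05 and -0.03 over all genes. Ndufs1 had the highest ratio among them, at 0.16 (-0.41 to 0.72) and 0.52 (0.11 to 0.93). Outside the core, the highest ratios were those of Ndufaf3, at 0.86 and 0.35, Ndufv3, a small matrix arm subunit, at 0.45 and 0.43, Ndufb10, at 0.23 and 0.24, and Ndufs4, needed for a stable NADH module, at 0.20 and 0.24. The lowest after Ndufc2 and Ndufb4 were 3 assembly factors: Ndufaf2 at -0.75 and -0.37, Ndufaf6 at -0.61 and -0.49, and Ndufaf5 at -0.44 and -0.58. With the largest cluster of each class alone, 10 members were lower in neuroblasts, 3 of them core subunits. The share of all genes lower in that setting was not counted, so these counts have no background. Median log2 ratios there were -0.10 and -0.10 over all genes and -0.54 and -0.61 over core subunits. The neuroblast cluster used had a median of 2628 and 2667.5 UMIs per cell and subunit sums of 6702 and 7370.25 CPM. The activated cluster used had a median of 11966 and 10734 UMIs per cell.

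Set against quiescent cells directly, 8 of 43 members were lower in neuroblasts and none higher, beside 26.1% lower and 27.8% higher among 8219 genes. Among them were the core subunits Ndufs3, Ndufs7 and Ndufv1, the membrane arm subunits Ndufc2 and Ndufb4, and the assembly factors Ndufaf1 and Ndufaf7. Ndufv1 had log2 ratios of -1.26 (-1.57 to -0.96) and -1.14 (-1.42 to -0.86), and Ndufs7 of -1.04 and -1.18. With mitochondrial and ribosomal protein UMIs left out, Ndufb4 missed the fold in library 2, at -0.50. This comparison shares its cells with those above and adds no separate evidence to them.

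The mt-Nd genes, core subunits encoded in mitochondrial DNA, gave another picture. Their sum was 7016 and 8063 CPM in quiescent cells, 6776 and 6651 in activated cells, and 5838.5 and 6553 in neuroblasts. None of the 7 passed the fold between quiescent and activated cells, and their median log2 ratios were -0.32 and -0.52. With mitochondrial and ribosomal protein UMIs left out of the total, the sum in library 1 was higher in activated cells than in quiescent cells (8399 against 7863 CPM of that total), while in library 2 it stayed lower (8386 against 9240.3). mt-Nd4 had 2275 and 2701 CPM in quiescent cells and 1790 and 1860.0 in activated cells, at log2 ratios of -0.35 and -0.54. mt-Nd1, the most abundant, had 2771 and 3023 CPM in quiescent cells and 3176 and 2961 in activated cells, with ratios of 0.20 and -0.03 that differ in sign.

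For each mt-Nd UMI, quiescent cells had 1.504 (1.48 to 1.53) nuclear subunit UMIs in library 1 and 1.35 (1.32 to 1.38) in library 2. Activated cells had 1.32 (1.29 to 1.35) and 1.38 (1.36 to 1.41), and neuroblasts 1.38 (1.34 to 1.41) and 1.33 (1.31 to 1.36). Quiescent cells were above the other classes in library 1 only, and in library 2 they were between them, so no order of the classes held in both. With cells of at least 1000 genes and at most 5% mitochondrial UMIs, quiescent cells were highest in both libraries, at 1.74 and 1.59 against 1.31 and 1.38 in activated cells and 1.36 and 1.33 in neuroblasts. That filter selects cells by mitochondrial UMIs, which include the mt-Nd UMIs of this ratio, so the ratio is not independent of it. The quiescent class held 515 and 411 cells under it, against 710 and 583 in the main setting. Quiescent cells were highest in both also with marked doublets kept and at a clustering resolution of 2, though by little in library 2 (1.40 and 1.37, against 1.36 and 1.34 in activated cells). The high value came from quiescent cluster 0 of library 1, at 1.62 beside 1.31 in library 2. In cluster 1 the values were 1.32 and 1.39.

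Other parts of the respiratory chain were counted the same way between activated and quiescent cells, from lists of genes outside the naming rule. Among all genes counted, 26.1% were lower and 27.7% higher, and no list of complexes II to V exceeded either share. Of 9 subunits of complex III, Uqcrc1 and Uqcrc2, its large core proteins, were lower and none was higher. Of 8 complex II genes, Sdha, the flavoprotein of succinate dehydrogenase, and the assembly factor Sdhaf2 were lower. Of 13 complex IV genes, Cox4i2 and Cox6b2 were lower, and of 17 complex V genes, Atp5g1 and Atp5g2, both for the membrane ring, were higher and Atp5d lower. The median log2 ratios of these lists lay between -0.39 and 0.08 in library 1 and between -0.28 and -0.04 in library 2, all above those of the core subunits.

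Of 11 other complex I genes, the assembly factors Timmdc1 and Tmem126a were higher in activated cells and Tmem126b, a partner of Ndufaf1 in the same assembly complex, was lower. Tmem126b had 27.6 and 25.2 CPM in quiescent cells and 8.57 and 11.2 in activated cells, at log2 ratios of -1.69 (-2.54 to -0.91) and -1.16 (-1.78 to -0.55). Of 9 regulators of mitochondrial genes, Gabpb1, Pprc1 and Yy1 were higher, and Esrra and Ppargc1a lower. Ppargc1a, the coactivator of mitochondrial biogenesis, had 58.2 and 58.9 CPM in quiescent cells and 12.1 and 11.5 in activated cells. Of 75 mitochondrial ribosomal proteins, 15 were higher and 1 lower, no larger shares than the 27.7% higher and 26.1% lower among all genes. Of 83 genes taken by the symbols of cytosolic ribosomal proteins, 76 were higher and 1 lower. Those symbols also take in ribosomal S6 kinases: the 1 lower gene was Rps6kb2, and Rps6ka6 and Rps6kb1 were among the 76. The count of 76 moves with the ribosomal share given above, which was summed over the same list.

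**Figure D4:**
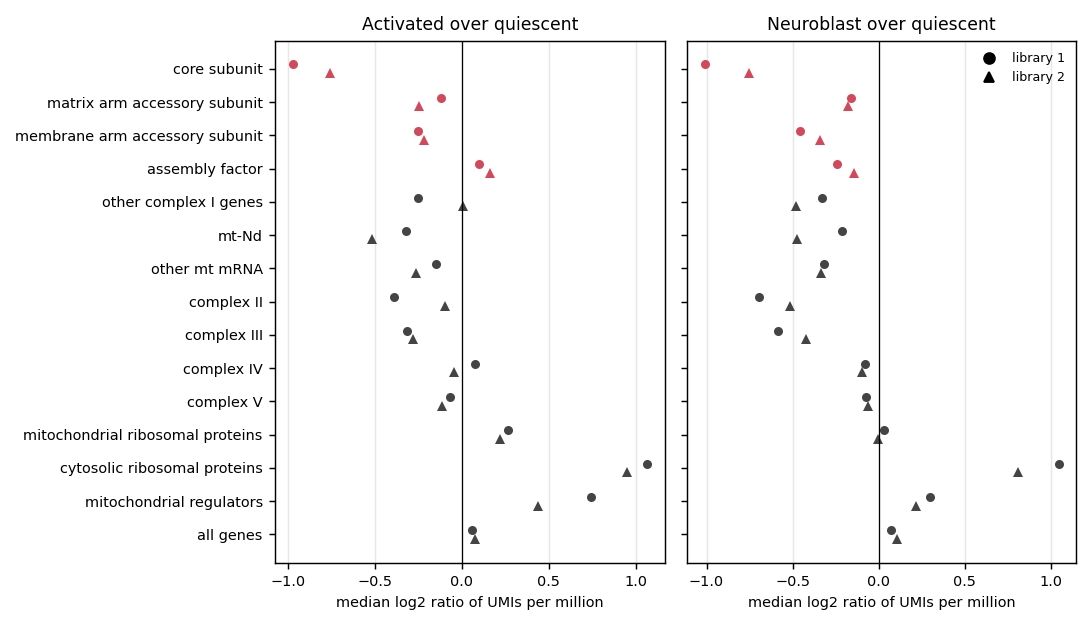
Median log2 ratio of CPM over the genes of each list, activated over quiescent cells (left) and neuroblasts over quiescent cells (right), with circles for library 1 and triangles for library 2, and complex I roles in red. Core subunits are at -0.97 and -0.76 on the left, the lowest of the lists drawn, and cytosolic ribosomal proteins are the highest.

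Between libraries no member with enough UMIs differed by 1.5-fold in any class. In quiescent cells 5.98% of 8657 genes were higher in library 1 and 5.21% lower, and of 43 members none was. In activated cells the shares were 5.18% and 3.75% of 8325 genes, and in neuroblasts 6.81% and 4.05% of 7873 genes, again with no member among them. The median log2 ratio of library 1 to library 2 over all members counted was -0.01 in quiescent cells, 0.00 in activated cells and -0.09 in neuroblasts.

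The members farthest apart in quiescent cells were Ndufaf4, at 86.1 CPM in library 1 and 58.0 in library 2, a log2 ratio of 0.57 (0.25 to 0.89), and Ndufa9, at 127 and 92.6, a ratio of 0.45 (0.20 to 0.71). Ndufaf1, Ndufv1 and Ndufa10, a membrane arm subunit with a kinase-like fold, followed at 0.37, 0.34 and 0.28. On the other side Ndufaf7 was at -0.39 (-0.77 to -0.01), Ndufv3 at -0.34, Ndufa2 at -0.30, Ndufs6 at -0.27 and Ndufaf2 at -0.26. Of the 7 core subunits, 6 had the higher level in library 1, and the core median of the log2 ratio was 0.08. Among the mt-Nd genes, mt-Nd3 had 227 and 406 CPM, a log2 ratio of -0.84, and the other 6 ranged from -0.35 to 0.11. In neuroblasts mt-Nd6 had 20.8 and 13.2 CPM, a log2 ratio of 0.65 (-0.04 to 1.34). Oligodendrocyte markers moved with the library, and their part in these values was not tested: all 11 were detected in every class, and their sum was 587 and 253 CPM in quiescent cells, 462 and 76.2 in activated cells, and 375 and 79.1 in neuroblasts.

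Oligodendrocytes were compared with quiescent cells in library 1 alone, since library 2 had 9 of them. Of 7141 genes, 34.7% were lower by at least 1.5-fold and 18.3% higher, and of 43 members 10 were lower and 1, Ndufaf2, was higher. Of the core subunits, Ndufs3 was lower, at 102 against 204 CPM, a log2 ratio of -1.01 (-1.46 to -0.58), and the core median of -0.12 was above the -0.19 of all genes. Ndufa12 had 197 against 475 CPM and Ndufc2 341 against 663. Ndufaf6 had 1 UMI in the oligodendrocytes, a log2 ratio of -3.49 (-8.82 to -0.96). Ndufa3 was at the upper end of the subunits, at 699 against 484 CPM. The comparison rests on 100 cells and 471787 UMIs and on 1 library.

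The exons of Ndufb2, Ndufb8 and Ndufb9 overlap those of Gm42420, Gm20538 and Gm49356 on the same strand in the GENCODE annotation. Whether the annotation used for counting holds these overlaps was not checked, so the counts of Ndufb2, Ndufb8 and Ndufb9 may be uncertain. None of these 3 members passed the fold in the comparisons of classes.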

How the data were processed

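Single cells of the mouse subventricular zone were measured in 2 libraries. The deposited matrix held raw whole-number counts of UMIs per gene and barcode. Cell Ranger 2.0.0 and the builds GRCm38.p3 and mm10 are named per the submitters' processing notes, which give them no role. Neither cell calling nor the merging of the libraries is described in the sources used here.

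Barcodes under 500 genes or over 10% mitochondrial UMIs were removed (9 in library 1 and 13 in library 2). Scrublet, run in scanpy with an expected rate of 1.5%, marked 15 (0.811%) and 11 (0.527%) doublets, which were removed, leaving 1825 and 2064 cells. After scaling to 10000 UMIs in each cell and a log transform, 2000 variable genes (found in at least 5 cells, none of them members or list genes) gave 30 components, and Leiden clustering (15 neighbours, resolution 1, seed 1) gave 16 clusters. A cluster took the class with the highest mean marker fold, among 14 lists of 148 markers, if at least 3 markers reached 1.5-fold and no other class had more markers among its 10 leading genes. This rule was first set on these data after clusters had been seen. It left 4 clusters unnamed, with 445 cells of library 1 and 570 of library 2 that enter none of the classes.

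UMIs were summed per class and library. A gene entered a comparison with at least 50 UMIs over both sides in each library. Poisson, conditional binomial and Clopper-Pearson intervals are exact. Genes named were the core subunits, the assembly factors, Ndufa4, Ndufa4l2, the mt-Nd genes, and the 5 at each end of each ratio and the 5 of highest level; others were named after their values were seen. The values of 1 core subunit are not reported here, though it is in the sums and counts. Members and lists were chosen with earlier results of these data known. The counting was checked on simulated data. There were 12 alternatives. Tools were Python 3.11.15, scanpy 1.11.5, scipy 1.17.1, with pandas 2.3.3 and numpy 2.4.6 for tables, matplotlib 3.10.9 for plots, and igraph 0.11.9 under leidenalg 0.10.2. Promoters are RefSeq's on GRCm38.p6, and gene positions GENCODE's.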

Additional observations from a re-analysis of the deposited data

Results flagged for a closer look

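Ndufa5, a small matrix arm subunit, moved in opposite directions in the libraries between neuroblasts and quiescent cells. In library 1 it had 297 CPM in neuroblasts and 336 in quiescent cells, a log2 ratio of -0.18 (-0.34 to -0.02). In library 2 it had 349 and 309.6, a log2 ratio of 0.17 (0.03 to 0.31). Neither interval includes 0, both values are far from 1.5-fold, and the difference between libraries was not tested.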

How the results depend on the processing

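Each age had a single library, so replicates were not left out and nothing was tested, and depth limits the members of low level (Ndufa4l2 had 22 UMIs in all cells and Ndufaf1 had 361). Between ages no paired analysis was possible because each age has 1 library, so that the ages share fewer than 2 replicate numbers. Classes were compared within each library. Of 819 gene values under alternatives, over 27 genes, 553 moved by no more than the distance of each library from their mean, 266 by more, and none that had passed the fold changed sign. The alternatives that change only the count filter leave the ratio of a kept gene as it was. Their values are all among the 553 and could not have moved. The causes of the changes below were not tested. Ratios within the same cells have no separate value under other totals, centring, count filters or folds.

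Between activated and quiescent cells, members lower went from 9 to 4 and core subunits lower from 5 to 3 without mitochondrial and ribosomal protein UMIs, and to 2 and 1 with a fold of 2, where members higher went from 1 to 0; the largest clusters alone gave 2 higher. Between neuroblasts and activated cells, members lower went from 1 to 3 at resolution 2, after thinning and with equal weight per cell, to 0 with a fold of 2, and to 10 (3 core) in the largest clusters. Between neuroblasts and quiescent cells, members lower went from 8 to 15 with centring, 19 in the largest clusters and 3 with a fold of 2, where core subunits lower went from 4 to 2. Between libraries, members past the fold went from 0 to 1 in quiescent cells with no count filter, with stricter cell filters and with equal weight per cell. Thinning gave 1 in quiescent cells, 2 in activated cells and 3 in neuroblasts, and the largest cluster 1 in neuroblasts. Shares of all genes were counted under the main setting and, between classes, without mitochondrial and ribosomal protein UMIs. The counts under the other alternatives have no such background.

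Subunit UMIs per mt-Nd UMI in quiescent cells were 1.74 and 1.59 (libraries 1 and 2) with stricter cell filters, 1.58 and 1.40 with doublets kept, 1.55 and 1.32 after thinning, 1.62 and 1.31 in the largest cluster, 1.46 and 1.28 with equal weight per cell, and 1.61 in library 1 at resolution 2. In activated cells they were 1.29 and 1.33 after thinning, 1.29 and 1.35 with equal weight, and in library 2 1.34 at resolution 2 and 1.36 in the largest cluster. In neuroblasts they were 1.33 and 1.26 after thinning, 1.32 and 1.15 in the largest cluster, and 1.24 in library 2 with equal weight. The core share was 9.91% and 8.41% in activated cells and 8.66% in neuroblasts of library 1 after thinning, and in the largest clusters 11.5% in quiescent and 9.39% in activated cells of library 2.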
